A study of Mus musculus with 24 samples.

Results

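Epithelial-mesenchymal transition (EMT) is followed here through 10 genes: the transcription factors Zeb1, Zeb2, Snai1, Snai2, Twist1, Twist2 and Prrx1, the intermediate filament gene Vim, and the splicing factors Esrp1 and Esrp2. They were chosen by name, as 10 of the 53465 genes in the table of counts, and each symbol matched 1 Ensembl gene. RNA was sequenced from 24 tumors of the BURP model (BBN-induced urothelial carcinoma, Roswell Park), 3 from each of 8 lines. All lines came from male and female C57BL/6NTac mice that drank 0.1% BBN, a bladder carcinogen, from 8 weeks of age for up to 36 weeks, and bladder tumor tissue was then passaged under the skin of hosts of the same strain and sex. Of the 6 basal/squamous (Ba/Sq) lines, males gave BURP-12BaSq, BURP-17BaSq and BURP-18BaSq, and females gave BURP-21BaSq, BURP-24BaSq and, with them, BURP-25BaSq. BURP-16SR, which the study calls stroma-rich and describes as sarcomatoid, and BURP-19NE, which it calls neuroendocrine, are from males. In the study's classification 1 of the 3 BURP-16SR replicates came out as neuroendocrine-like, and the study also names this line stroma-rich/NE-like. There is no untreated or normal bladder group. All 3 tumors of a line go back to a single donor tumor, so each of BURP-16SR and BURP-19NE stands for 1 mouse. The p-values treat allografts as independent. The spread they measure is that between allografts of a line and, where Ba/Sq tumors are compared, also that between Ba/Sq lines. The tissue is bulk tumor with host stroma and vessels, in which fewer cells of a type and less RNA per cell cannot be told apart.

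Epithelial cells hold to each other through E-cadherin junctions, and cells in EMT lose these junctions and take on a mesenchymal shape. ZEB and SNAIL proteins bind the E-box CAGGTG and repress epithelial genes, TWIST and PRRX1 proteins act beside them in embryonic mesenchyme, vimentin is the filament of mesenchymal cells, and the ESRP proteins keep many transcripts in their epithelial splice form. The microRNAs of the miR-200 family and miR-205 target Zeb1 and Zeb2 transcripts, and the ZEB proteins repress the miR-200 genes in return.

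Total counts per tumor ran from 9295747 to 25370356, with a median of 17693198.5. Levels are given as CPM, counts scaled to the library's TMM-normalized total, and 3 counts, taken as the floor of detection, stood for 0.106 to 1.34 CPM depending on the tumor. The highest floor was that of C102-M30 of BURP-25BaSq, in which genes of ribosomal RNA and Gm26917 took 62.8% of the counts. Another tumor of BURP-25BaSq, C102-M1, was closer in its expression to BURP-21BaSq than to its own line. The 10 urothelial markers take in keratins, the basal-cell genes Trp63 and Dsg3, and the uroplakins of luminal umbrella cells. They summed to 7921 to 21009 CPM in Ba/Sq tumors, 7.89 to 17.5 CPM in BURP-16SR and 1.23 to 2.06 CPM in BURP-19NE. Of the basal markers Dsg3 had no count in BURP-16SR. The uroplakin genes Upk2 and Upk3a had no count in either line and Upk1b none in BURP-19NE, and the Ba/Sq means of the uroplakin genes were themselves at most 2.49 CPM. A gene is called different where edgeR's quasi-likelihood test over all genes gives a p under 0.05 after Benjamini-Hochberg adjustment and the change exceeds 1 on the log2 scale in size. The comparisons of BURP-19NE and of BURP-16SR with the Ba/Sq lines share the same 18 Ba/Sq tumors.

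Short sequence features of microRNAs, of some of these genes and of epithelial genes are shown before the levels. The mature microRNAs below carry the seeds, bases 2 to 8 in capitals, by which they pair with transcripts. They fall into 3 seed groups. The first holds miR-200b, miR-200c and miR-429, the second holds miR-200a and miR-141, and miR-205 stands alone. The sequences are those of RefSeq on GRCm38.p6.
miR-200b-3p: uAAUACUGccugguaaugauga
miR-200c-3p: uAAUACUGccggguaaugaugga
miR-429-3p: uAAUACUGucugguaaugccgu
miR-200a-3p: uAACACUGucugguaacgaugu
miR-141-3p: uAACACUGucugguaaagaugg
miR-205-5p: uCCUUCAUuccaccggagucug
miR-200b, miR-200a and miR-429 come from 1 cluster on chromosome 4 (minus strand), for example miR-200b-3p at chr4:156055685-156055706. miR-200c and miR-141 come from chromosome 6, and miR-205-5p lies at chr1:193507503-193507524, also on the minus strand.

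The 3′ UTR of Zeb2 (chromosome 2, minus strand, GRCm38), 4941 bases in its longest annotated form, holds 5 matches to the first seed (CAGTATT) and 4 to the second (CAGTGTT). Of the 822 genes whose longest 3′ UTR is at least that long, 0.122% have 5 or more of the first and 1.22% have 4 or more of the second within the same length. Zeb2 itself is counted in both shares. The following matches of Zeb2 are printed with 10 bases on each side and the match in capitals.
Zeb2 match to the first seed group, chr2:44988164-44988190: taccatacatCAGTATTttattattat
Zeb2 match to the first seed group, chr2:44987518-44987544: ctgtagtgtaCAGTATTatagttcttc
Zeb2 match to the second seed group, chr2:44988348-44988374: aaattttgtaCAGTGTTaaggcctaaa
Zeb2 match to the second seed group, chr2:44987816-44987842: catccttgtaCAGTGTTcagagggtaa
Snai1 had 1 match to the first seed, Snai2 had 1 to each of the first 2 groups, and the 3′ UTRs of Twist1, Twist2, Prrx1, Vim, Esrp1 and Esrp2 held none of these letters. A match is a stretch of letters, and pairing was not measured.

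The E-box was searched as CAGGTG on both strands (CACCTG on the printed strand) in RefSeq promoter windows of GRCm38.p6 that run from 250 bases before to 50 after a gene's start, taking the window with most matches where a gene has several. At least 1 match lay in 22.6% of the 27025 genes with a window. Among 20 genes of epithelial junctions and polarity, 14 had a window and 13 of these held the E-box (92.9%), 7 of them at least 2 times (50%, against 3.32% of all genes). The 14 genes had 1.5 windows each on average, against 1.22 over all genes, and more windows give more chances of a match. Of 12 mesenchymal effector genes with a window, 2 held it. Of the 10 genes themselves 6 had a window, and Snai1 alone of these held the E-box. Zeb1, Snai2, Esrp1 and Esrp2 had no window and were not searched. The 250 bases before the start are printed, with the E-box in capitals, for Crb3 (an apical polarity gene), Epcam (an epithelial adhesion molecule) and Snai1, all on the plus strand.
Crb3, chr17:57061951-57062200: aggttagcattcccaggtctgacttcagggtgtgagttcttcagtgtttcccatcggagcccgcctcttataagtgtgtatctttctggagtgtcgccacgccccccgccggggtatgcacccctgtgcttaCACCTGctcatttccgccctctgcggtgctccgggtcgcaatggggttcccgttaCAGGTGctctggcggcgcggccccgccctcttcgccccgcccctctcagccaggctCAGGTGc
Epcam, chr17:87635729-87635978: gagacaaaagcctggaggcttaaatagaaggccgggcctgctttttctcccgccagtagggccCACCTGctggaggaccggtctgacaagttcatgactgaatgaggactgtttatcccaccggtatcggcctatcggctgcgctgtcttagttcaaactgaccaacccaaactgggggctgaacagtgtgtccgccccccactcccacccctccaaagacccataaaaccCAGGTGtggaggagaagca
Snai1, chr2:167537945-167538194: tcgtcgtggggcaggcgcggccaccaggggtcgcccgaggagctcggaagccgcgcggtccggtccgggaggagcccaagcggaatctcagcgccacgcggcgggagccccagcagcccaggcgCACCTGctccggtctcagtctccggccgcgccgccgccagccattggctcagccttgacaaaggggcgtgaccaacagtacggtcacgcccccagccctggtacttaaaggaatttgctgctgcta
Crb3 has a further match in the 50 bases after its start, which makes 4 in its window. The letters show where the motif occurs, and binding was not measured.

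Between the classes of line, the calls of the 10 genes fell into several patterns. Zeb1, Zeb2, Twist1 and Vim were called higher in both BURP-19NE and BURP-16SR than in the Ba/Sq tumors, and Snai2, Esrp1 and Esrp2 were called lower in both. Snai1 and Prrx1 were called higher in BURP-16SR, and neither was called in BURP-19NE, where both had fitted values below the Ba/Sq lines. Twist2 was called in neither. Against the Ba/Sq tumors 7 of the 10 genes were called in BURP-19NE, 4 higher and 3 lower, where 24.3% of all 20995 genes tested were called (9.33% higher and 15% lower). In BURP-16SR 9 were called, 6 higher and 3 lower, where 19.2% of 21028 genes were (10.5% higher and 8.62% lower). With single tumors left out, 7 to 8 of the genes were called in BURP-19NE and 6 to 9 in BURP-16SR. The tumors did not overlap with any Ba/Sq tumor for 7 of the genes in BURP-19NE (18.2% of all genes) and for 5 in BURP-16SR (11.5% of all genes).

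**Figure D1:**
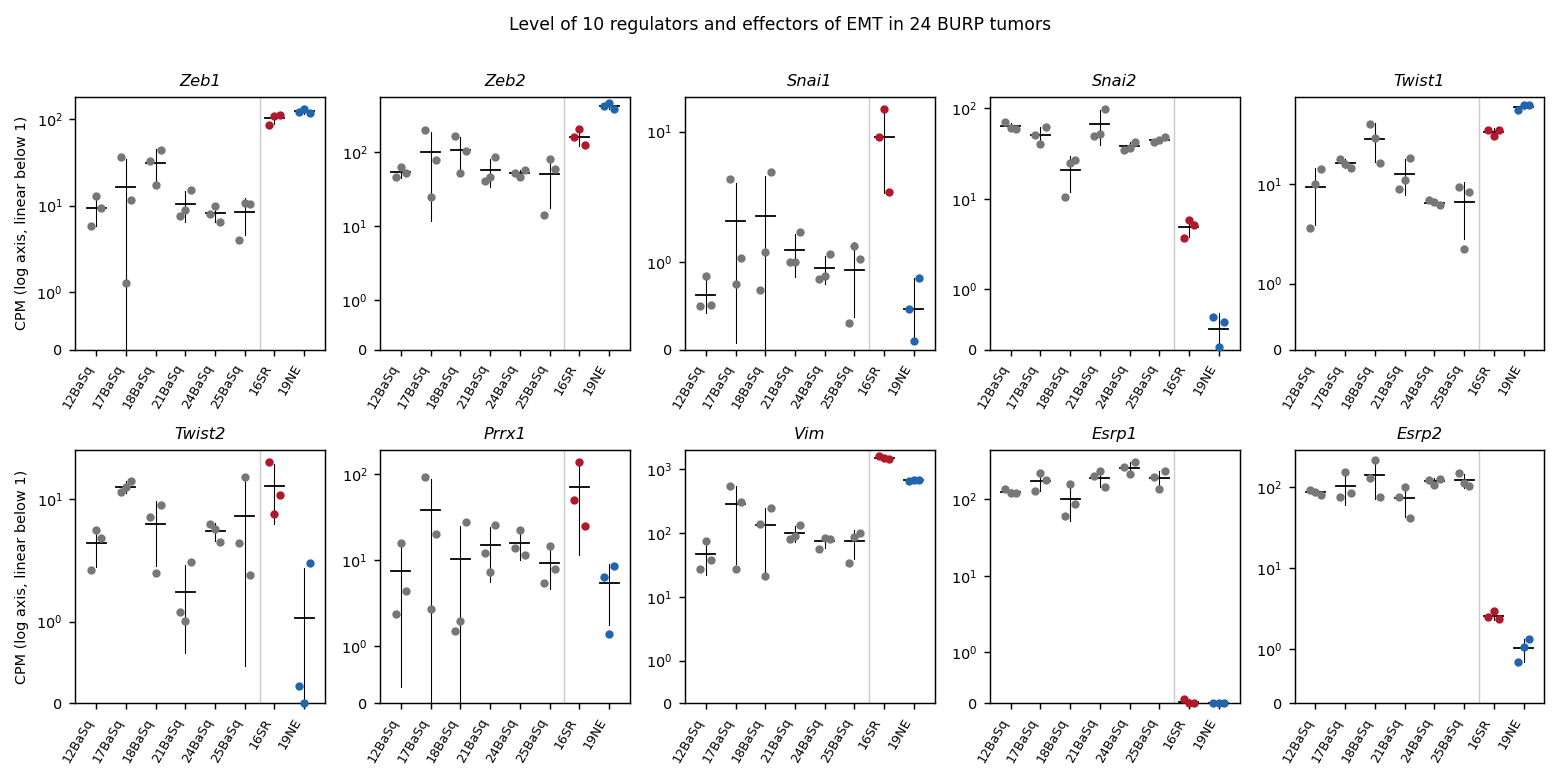
Level of each gene in CPM (log axis, linear below 1) in the 3 tumors of each line, with points for tumors and horizontal and vertical lines for the mean and SD. BURP-16SR is drawn in red, BURP-19NE in blue and the Ba/Sq lines in gray, and the 6 red and blue tumors lie above every gray tumor for Zeb1 and Vim and below every one for Snai2, Esrp1 and Esrp2.

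Zeb1 (ENSMUSG00000024238.14, chromosome 18, plus strand) encodes the zinc-finger repressor ZEB1. It stood at 120.4, 132 and 117 CPM in tumors C80-M1, C80-M3 and C80-M30 of BURP-19NE and at 86.4, 109.5 and 110.5 CPM in C73-M10, C74-MNT and P5 of BURP-16SR. The 18 Ba/Sq tumors ran from 1.26 to 44.6 CPM with a median of 10.2 CPM. Every tumor of BURP-19NE and BURP-16SR was thus above every Ba/Sq tumor, the highest of which was P4 of BURP-18BaSq. The change was 3.14 on the log2 scale (standard error 0.51, adjusted p = 8.24e-05, edgeR) for BURP-19NE and 2.93 (standard error 0.52, adjusted p = 0.000265, edgeR) for BURP-16SR. Between BURP-16SR and BURP-19NE it was -0.18 (standard error 0.14) and was not called (adjusted p = 0.335, edgeR). The CPM given above do not overlap between these lines. They did overlap when only the tumors of these lines were normalized together.

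Zeb2 (ENSMUSG00000026872.17, chromosome 2 from 44983632 to 45117395, minus strand) encodes the related repressor ZEB2, which macrophages and other leukocytes also express. BURP-19NE tumors had 414, 461 and 378 CPM and BURP-16SR tumors 156, 202 and 124 CPM. In the Ba/Sq tumors Zeb2 ran from 14.1 to 194 CPM, with a median of 54.3 CPM. BURP-19NE lay above all other tumors, whereas BURP-16SR overlapped with C152-M1 of BURP-17BaSq and C148-M3 of BURP-18BaSq. Zeb2 was higher in BURP-19NE by 2.61 on the log2 scale (standard error 0.41, adjusted p = 4.81e-05, edgeR) and in BURP-16SR by 1.29 (standard error 0.44, adjusted p = 0.0367, edgeR). It was the ZEB gene called between the 2 lines, 1.28 lower in BURP-16SR on the log2 scale (log2 fold change -1.28, standard error 0.22, adjusted p = 0.00718, edgeR), a call lost with all 24 tumors in 1 fit (adjusted p = 0.0717). The 10 macrophage markers summed to 181 to 238 CPM in BURP-19NE, 195 to 672 CPM in BURP-16SR and 28.7 to 824 CPM in the Ba/Sq tumors, and none of the 10 was called in BURP-19NE, where 0 had an unadjusted p under 0.05 in edgeR's test. The call in BURP-16SR was lost with any of its 3 tumors left out (adjusted p = 0.110 without C73-M10, 0.178 without C74-MNT and 0.0797 without P5, edgeR), without C102-M30 of BURP-25BaSq (adjusted p = 0.0502) and with no filter on low counts (adjusted p = 0.0687).

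Snai1 (ENSMUSG00000042821.7, chromosome 2 from 167538195 to 167542814, plus strand) and Snai2 (ENSMUSG00000022676.6, chromosome 16 from 14705852 to 14709385, plus strand) encode the repressors SNAIL and SLUG, the second of which basal cells of stratified epithelia also express. Snai1 was at 9.07, 14.9 and 3.43 CPM in BURP-16SR, at 0.463, 0.105 and 0.817 CPM in BURP-19NE (2 to 18 counts) and between 0.312 and 4.92 CPM in the Ba/Sq tumors, with a median of 1.01 CPM. The highest 2 BURP-16SR tumors exceeded all other tumors, and P5 lay below C152-M1 of BURP-17BaSq and P4 of BURP-18BaSq. Snai1 was higher in BURP-16SR by 2.84 on the log2 scale (standard error 0.52, adjusted p = 4.13e-04, edgeR). In BURP-19NE the change was -1.50 on the log2 scale (standard error 0.76, adjusted p = 0.132, edgeR), and BURP-16SR exceeded BURP-19NE by 4.38 (standard error 0.83, adjusted p = 0.00913, edgeR).

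Snai2 ran the other way. The Ba/Sq tumors held from 10.6 to 99.6 CPM (median 46.3 CPM), BURP-16SR 3.73, 5.81 and 5.18 CPM, and BURP-19NE 0.547, 0.0527 and 0.454 CPM (13, 1 and 10 counts). The 3 classes did not overlap. The log2 fold change against the Ba/Sq tumors was -3.21 in BURP-16SR (standard error 0.48, adjusted p = 3.82e-05, edgeR) and -7.00 in BURP-19NE (standard error 0.69, adjusted p = 1.31e-07, edgeR). BURP-16SR was above BURP-19NE by 3.84 (standard error 0.65, adjusted p = 0.0065, edgeR). The lowest Ba/Sq tumor was C148-M3 of BURP-18BaSq and the highest P5 of BURP-21BaSq. Of the family relatives, Snai3 was at 2 counts in all in BURP-19NE (Ba/Sq mean 138 times higher, 95% counting interval 38.2 to 1138), and Scrt1 and Scrt2 had too few counts to be tested.

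Twist1 (ENSMUSG00000035799.6, chromosome 12 from 33957671 to 33959829, plus strand) encodes a basic helix-loop-helix factor of embryonic mesoderm. It was at 56.1, 63.4 and 62.0 CPM in BURP-19NE and at 35.5, 30.7 and 35.0 CPM in BURP-16SR, and the Ba/Sq tumors ran from 2.24 to 40.8 CPM with a median of 10.5 CPM. Only C148-M3 of BURP-18BaSq, at 40.8 CPM, reached the range of BURP-16SR, and no Ba/Sq tumor reached that of BURP-19NE. Twist1 was higher in BURP-19NE by 2.20 on the log2 scale (standard error 0.45, adjusted p = 7.35e-04, edgeR) and in BURP-16SR by 1.40 (standard error 0.48, adjusted p = 0.0364, edgeR). The second of these was lost with any BURP-16SR tumor left out (adjusted p = 0.129 without C73-M10, 0.0863 without C74-MNT and 0.133 without P5) and with no filter (adjusted p = 0.0618). BURP-16SR and BURP-19NE differed by -0.75 (standard error 0.13, adjusted p = 0.00691, edgeR), which is less than the fold change required for a call.

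Twist2 (ENSMUSG00000007805.4, chromosome 1 from 91801461 to 91848028, plus strand), a relative of Twist1 found in dermal and other fibroblasts, was at 20.01, 7.51 and 10.8 CPM in BURP-16SR and between 1.01 and 15.2 CPM in the Ba/Sq tumors (median 5.23 CPM). In BURP-19NE it was at 0.21, 0 and 2.996 CPM (5, 0 and 66 counts), so that C80-M30 held nearly all of its counts. The log2 fold change was 1.11 in BURP-16SR (standard error 0.56, adjusted p = 0.153, edgeR) and -2.49 in BURP-19NE (standard error 0.98, adjusted p = 0.0555, edgeR). Without C80-M30 the latter was -5.74 with an adjusted p of 0.00297 (edgeR), and DESeq2 called Twist2 lower with all tumors (log2 fold change -2.57, adjusted p = 0.0046).

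Prrx1 (ENSMUSG00000026586.16, chromosome 1 from 163245119 to 163313710, minus strand) encodes a homeodomain factor of limb and other mesenchyme that fibroblasts express. It had the widest range of the 10 genes among Ba/Sq tumors, from 1.51 CPM in C148-M3 of BURP-18BaSq to 92.5 CPM in C152-M1 of BURP-17BaSq, a ratio of 61.3, around a median of 11.7 CPM. BURP-16SR tumors had 49.0, 136 and 24.6 CPM and BURP-19NE tumors 6.36, 1.37 and 8.40 CPM. BURP-16SR and the Ba/Sq tumors overlapped. The log2 fold change was 2.21 in BURP-16SR (standard error 0.75, adjusted p = 0.0342, edgeR) and -1.55 in BURP-19NE (standard error 1.005, adjusted p = 0.243, edgeR). Without C74-MNT, the tumor with 136 CPM, the value for BURP-16SR was 1.27 (adjusted p = 0.377), and the adjusted p was 0.0693 without C73-M10 and 0.0569 with no filter. BURP-16SR exceeded BURP-19NE by 3.805 (standard error 0.88, adjusted p = 0.018, edgeR), with an adjusted p of 0.0699 without C80-M1. Its relative Prrx2 showed another order, called higher in BURP-19NE (log2 fold change 3.13, standard error 0.58, adjusted p = 3.26e-04, edgeR) and at 1.83 in BURP-16SR (standard error 0.72, adjusted p = 0.0646, edgeR).

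Vim (ENSMUSG00000026728.9, chromosome 2 from 13573927 to 13582826, plus strand) was at 1569.7, 1462 and 1444 CPM in BURP-16SR and at 636, 674 and 675 CPM in BURP-19NE. The Ba/Sq tumors ran from 21.02 to 532 CPM with a median of 82.2 CPM. The classes did not overlap, although the highest Ba/Sq tumor, C152-M1 of BURP-17BaSq, came near BURP-19NE. Vim was higher by 2.49 on the log2 scale in BURP-19NE (standard error 0.61, adjusted p = 0.00335, edgeR) and by 3.72 in BURP-16SR (standard error 0.58, adjusted p = 6.22e-05, edgeR). Directly compared, BURP-16SR exceeded BURP-19NE by 1.27 (standard error 0.16, adjusted p = 0.00235, edgeR). With all 24 tumors in 1 fit, where the spread within the Ba/Sq lines enters, the latter was 1.17 with an adjusted p of 0.231 (edgeR). Staining for the protein in the study was high in BURP-16SR and more heterogeneous in BURP-19NE.

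Esrp1 (ENSMUSG00000040728.15, chromosome 4 from 11331933 to 11386783, minus strand) and Esrp2 (ENSMUSG00000084128.10, chromosome 8 from 106130319 to 106136974, minus strand) encode splicing factors of epithelial cells. Esrp1 was between 60.6 and 304 CPM in the Ba/Sq tumors (median 168 CPM). It had 0 counts in all 3 tumors of BURP-19NE, which put it at least 1102-fold lower against the highest floor of a library of that line. In BURP-16SR it had 1 count, in C73-M10, and 0 in the other 2 tumors. The ratio of the Ba/Sq mean to BURP-16SR was 6799.9 with a 95% counting interval of 1220 to 268583, which covers counting error only. Esrp1 was called lower in both lines (adjusted p = 1.98e-10 and 2.89e-10, edgeR).

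Esrp2 was detected in every tumor. It was at 0.758, 1.05 and 1.32 CPM in BURP-19NE (18 to 29 counts) and at 2.46, 2.94 and 2.38 CPM in BURP-16SR (29 to 38 counts), against 41.1 to 211 CPM in the Ba/Sq tumors (median 100.3 CPM). The classes did not overlap. The log2 fold change was -6.63 in BURP-19NE (standard error 0.48, adjusted p = 8.59e-10, edgeR) and -5.27 in BURP-16SR (standard error 0.45, adjusted p = 1.26e-08, edgeR), and BURP-16SR was above BURP-19NE by 1.40 (standard error 0.33, adjusted p = 0.0184, edgeR). The last of these calls was lost without C73-M10, C74-MNT, C80-M1 or C80-M3, with adjusted p-values of 0.0551, 0.0529, 0.0827 and 0.0779.

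**Figure D2:**
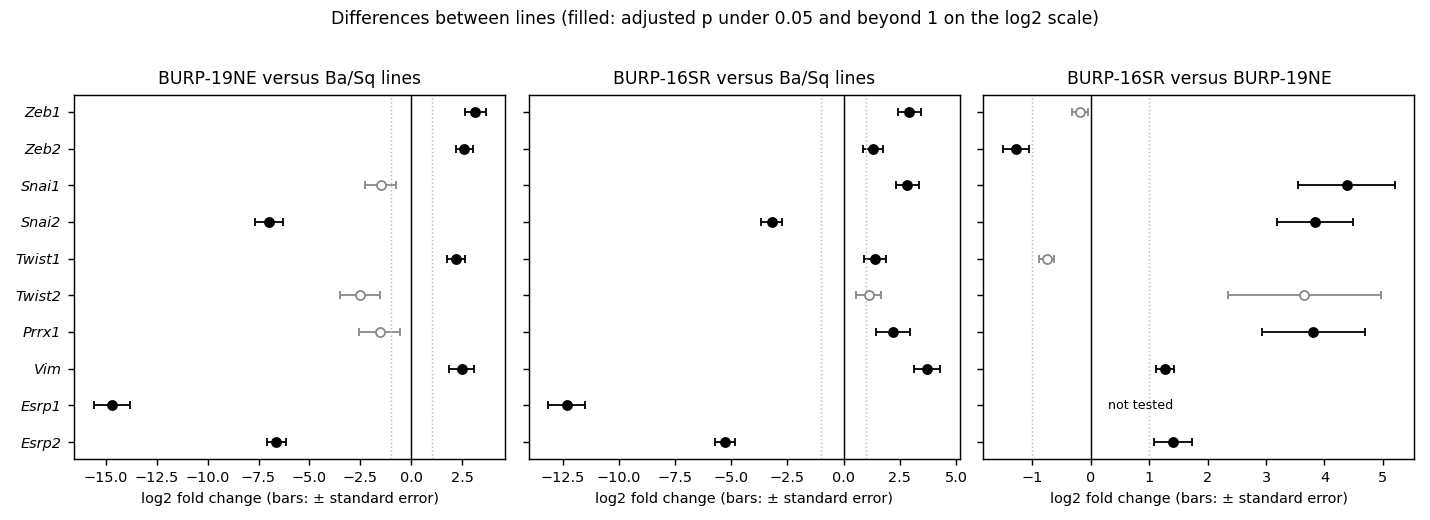
Log2 fold change of each gene in the 3 comparisons, with bars for the standard error, filled points for genes called at an adjusted p under 0.05 and beyond 1 on the log2 scale, and open points for the others. Each panel has its own axis, and Esrp1, at -14.71 in BURP-19NE and -12.32 in BURP-16SR, lies farthest from 0, where the fitted value depends on the prior count.

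Between BURP-16SR and BURP-19NE, 9 of the 10 genes were tested, since Esrp1 had too few counts, and 6 were called, 5 higher and 1 lower, where 23.6% of 17556 genes were (14.8% higher and 8.86% lower). Higher in BURP-16SR were Snai1, Snai2, Prrx1, Vim and Esrp2, and lower was Zeb2. The tumors of the 2 lines did not overlap for 8 of the 9 genes when these 6 were normalized together, with Zeb1 as the exception, where 51.4% of all genes did not overlap with 3 tumors against 3. Per kilobase of exon (RPKM), by which levels of different genes can be compared, Vim led both lines with a mean ± SD over 3 tumors of 315 ± 14.3 in BURP-16SR and 139 ± 4.74 in BURP-19NE. In BURP-19NE it was followed by Twist1 (37.2 ± 2.38), Zeb2 (20.9 ± 2.09) and Zeb1 (12.01 ± 0.777), and the other 6 genes were at 0.486 RPKM or less. In BURP-16SR the order was Twist1 (20.7 ± 1.64), Zeb1 (9.95 ± 1.33), Zeb2 (8.06 ± 1.99), Prrx1 (6.31 ± 5.30) and Snai1 (5.64 ± 3.55), and the last 4 of these were within each other's spread. In the Ba/Sq tumors Esrp1 (27.6 ± 10.1, SD, n = 18), Vim (25.03 ± 26.7), Esrp2 (24.4 ± 8.85) and Snai2 (23.6 ± 9.68) came first and did not differ beyond their spread. Snai2 was the leading EMT transcription factor of the Ba/Sq tumors by level, ahead of Twist1 (8.22 ± 5.78), and it was the lowest of the 7 such factors in BURP-16SR and BURP-19NE.

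**Figure D3:**
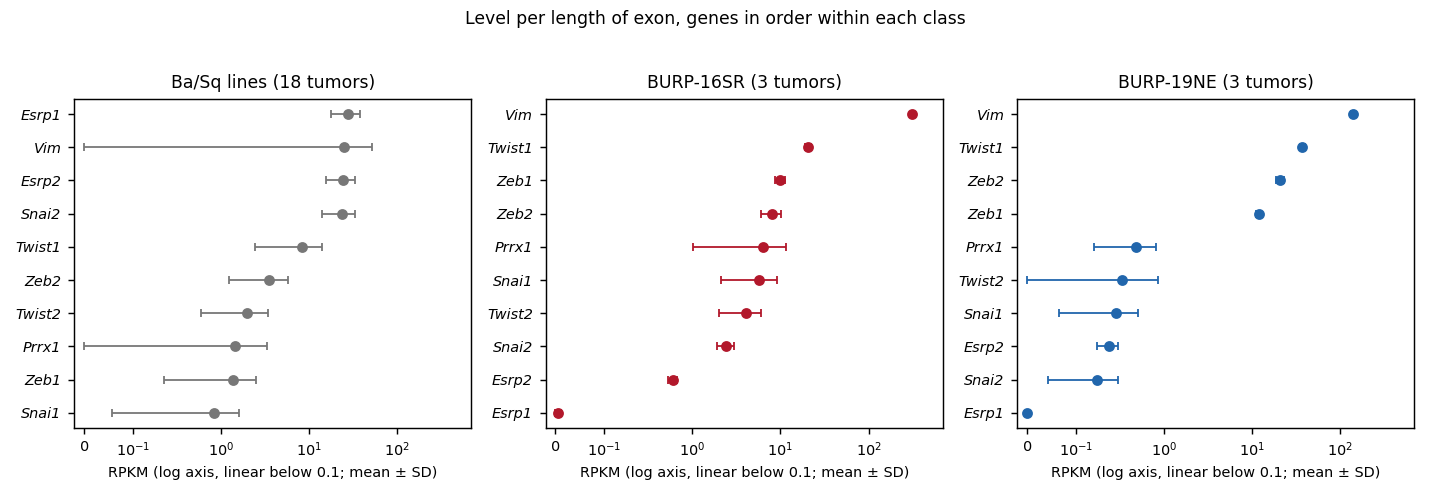
Mean level per kilobase of exon (RPKM, log axis, linear below 0.1) of the 10 genes in the Ba/Sq lines, BURP-16SR and BURP-19NE, in order within each class, with bars for the SD over tumors, cut off at 0. Snai2, Esrp1 and Esrp2 stand among the first 4 genes in the Ba/Sq lines and among the last 3 in the other classes.

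Levels of several genes moved with markers of fibroblasts. The 10 fibroblast markers, among them Col1a1, Dcn and Pdgfra, summed to 7601, 20198 and 603 CPM in C73-M10, C74-MNT and P5 of BURP-16SR, to between 1303 and 2015 CPM in BURP-19NE and to between 214 and 9950.4 CPM in the Ba/Sq tumors. None of the 10 was at 0 in any class as a whole. In BURP-16SR 5 were called higher and in BURP-19NE 1, where 10.5% and 9.33% of all genes were. Tumor P5 of BURP-16SR was 17 of 24 from the top by this sum. Its label may name a passage, which the labels of the other 2 tumors of the line do not give. Vim was at 1444 CPM in P5 and at 1462 and 1569.7 CPM in the other 2 tumors of the line, and Zeb1 at 110.5 CPM in P5 and at 86.4 and 109.5 CPM in the others. Snai1, Prrx1 and Zeb2 were lowest in P5 and highest in C74-MNT, in the order of the fibroblast sums. Among the Ba/Sq tumors, C152-M1 of BURP-17BaSq had the highest fibroblast sum and the highest Prrx1, Vim and Zeb2, and P4 of BURP-18BaSq had the next highest sum and the highest Snai1 and Zeb1. The same 2 tumors led the Ba/Sq class in macrophage markers (824 and 572 CPM) and endothelial markers (505 and 216 CPM). C148-M3 of BURP-18BaSq went against this order, with Zeb1 at 32.7 CPM, below only 2 Ba/Sq tumors, and the highest Twist1 at a fibroblast sum of 450.3 CPM. The part of these host cells in the levels of the 10 genes was not tested.

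Other cells of the host also varied. The 10 endothelial markers summed to between 294 and 465 CPM in BURP-16SR, 65.9 and 90.0 CPM in BURP-19NE and 42.8 and 505 CPM in the Ba/Sq tumors, and 7 of them were called higher in BURP-16SR. The 8 markers of smooth muscle and pericytes lay between 94.4 and 512 CPM in BURP-16SR, 31.3 and 84.5 CPM in BURP-19NE and 67.8 and 384 CPM in the Ba/Sq tumors. Of the 10 macrophage markers 1 was called higher in BURP-16SR, where 10.5% of all genes were called higher. Skeletal muscle markers were at 624 CPM in C80-M1 of BURP-19NE and at 4.37 and 7.72 CPM in the other 2 tumors of the line. Adipocyte markers reached 263 CPM in C152-M1 of BURP-17BaSq and 86.0 CPM in C73-M10 of BURP-16SR.

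**Figure D4:**
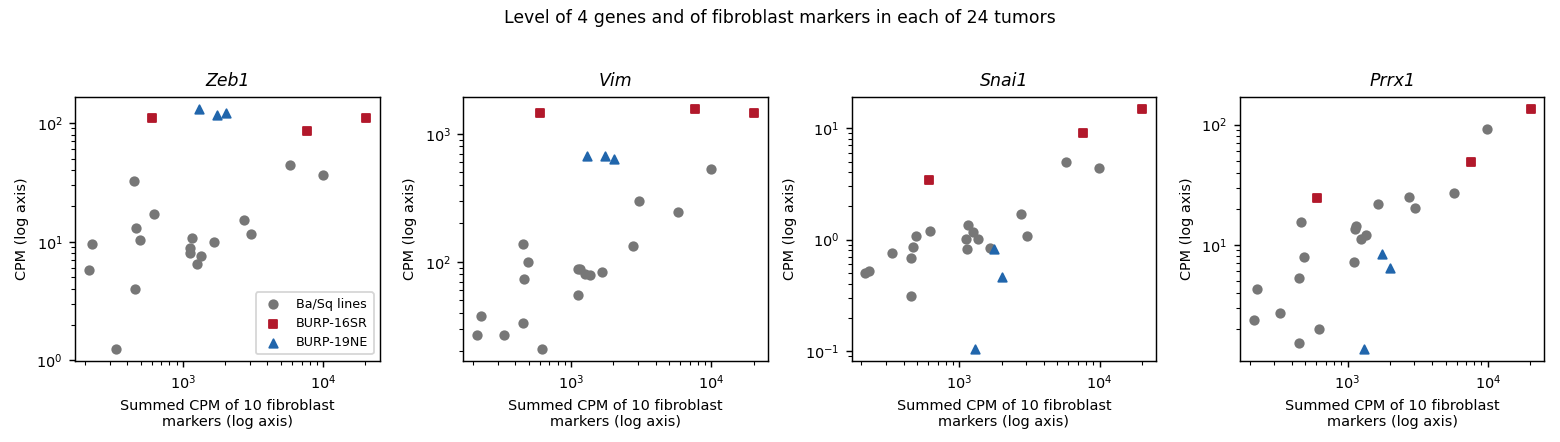
Level of Zeb1, Vim, Snai1 and Prrx1 (CPM, log axis) against the summed level of 10 fibroblast markers (CPM, log axis), with 1 point for each of 24 tumors. For Vim and Zeb1 the 3 BURP-16SR tumors sit at like levels over fibroblast sums from 603 to 20198 CPM, and for Snai1 and Prrx1 they rise from left to right.

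Zeb1, like Zeb2, has 5 matches to the first seed group and 4 to the second, in a 3′ UTR of 2401 bases. Of 4149 genes with a 3′ UTR at least as long, Zeb1 itself included, 0.0482% and 0.145% reach as many. Zeb1 also holds 1 match to miR-205 (ATGAAGG), as do 19.2% of those genes, and no other of the 10 genes holds it. The transcripts that carry these microRNAs were measured in part. The annotated hairpins of miR-200a, miR-200b, miR-200c, miR-141, miR-429 and miR-205 had no count in any tumor, and mature microRNAs are too short for these libraries. Gm13648 (ENSMUSG00000086549.1, chromosome 4 from 156052715 to 156059802, minus strand), a noncoding transcript across the miR-200b, miR-200a and miR-429 cluster, was between 1.51 and 16.97 CPM in the Ba/Sq tumors (5 to 407 counts). It had 0 counts in BURP-19NE, at least 34.7-fold lower, and 2 counts in BURP-16SR, where the ratio of the Ba/Sq mean was 107 (95% counting interval 29.7 to 885). 4631405K08Rik (ENSMUSG00000097850.2, chromosome 1 from 193507238 to 193510174, minus strand), a lincRNA across miR-205, was between 31.0 and 175 CPM in the Ba/Sq tumors. It had 0 counts in BURP-16SR, at least 338-fold lower, and 6 counts in BURP-19NE. Both were called lower in both lines (highest adjusted p = 6.22e-05, edgeR). Gm15884, a noncoding transcript at the miR-200c and miR-141 locus on chromosome 6, averaged 0.309 ± 0.139 CPM (SD) over the 3 tumors of BURP-16SR, 0.395 ± 0.0983 CPM over the 3 of BURP-19NE and 0.771 ± 0.36 CPM over the 18 Ba/Sq tumors. It was not called in either line (adjusted p = 0.0731 and 0.118, edgeR), though with all 24 tumors in 1 fit it was called lower in BURP-16SR (log2 fold change -1.18, adjusted p = 0.0168, edgeR). Gm13648 lies over part of Ttll10 on the same strand, so counts at the locus could be split between them.

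**Figure D5:**
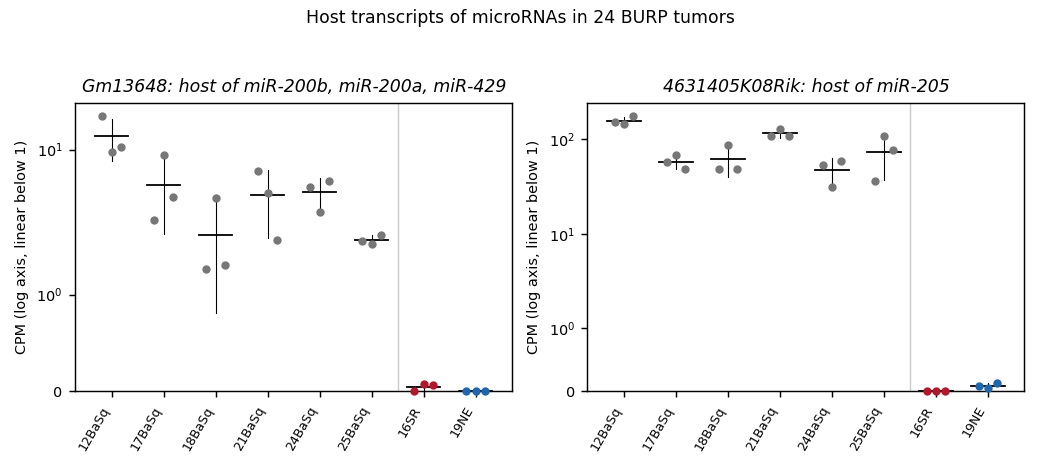
Level of the host transcripts Gm13648 and 4631405K08Rik (CPM, log axis, linear below 1) in the 3 tumors of each line, with points for tumors and lines for the mean and SD. All Ba/Sq tumors had counts of both, and the 6 tumors of BURP-16SR and BURP-19NE lie at or near 0.

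Most genes of a chosen list of epithelial junction and polarity genes were low where Esrp1 and Esrp2 were low. Action of the regulators on them was not tested. Of these 20 genes, 17 were lower and 0 higher in BURP-19NE, where 15% of all genes tested were called lower. Their median log2 fold change in BURP-19NE was -7.14 where genes at 0 were set to their bound (-0.14 over all genes tested). Epcam and Ocln, which encodes a tight junction protein, had 0 counts there, at least 688-fold and 170-fold lower, and Cldn4, a claudin, had 2 counts against a Ba/Sq mean of 188 CPM. In BURP-16SR 16 of the 20 were lower and 0 higher, where 8.62% of all genes tested were called lower. Their median there was -5.13 (-0.03 over all genes tested). Dsp, the desmosomal plaque gene, fell by 12.997 on the log2 scale (standard error 1.003, adjusted p = 3.05e-09, edgeR) to 14 counts, and Cldn3 and Marveld3 had 0 counts, at least 78.2-fold and 44.0-fold lower (the call of Cldn3, at an adjusted p of 0.0321, was lost with any BURP-16SR tumor left out). Cdh1, which encodes E-cadherin and was looked up for its role rather than by the naming rule, averaged 487 ± 182 CPM (SD) over the 18 Ba/Sq tumors, 5.33 ± 1.26 CPM over the 3 of BURP-16SR and 1.36 ± 0.74 CPM over the 3 of BURP-19NE. The genes of this list not called were Krt18, Krt19 and Patj in BURP-19NE and these and Krt8 in BURP-16SR. Krt8, a keratin of simple epithelia, averaged 123 ± 44.1 CPM (SD, 3 tumors) in BURP-16SR and 50.4 ± 54.1 CPM over the 18 Ba/Sq tumors, with 6 counts in all of BURP-19NE, and BURP-16SR exceeded BURP-19NE by 10.35 (standard error 0.84, adjusted p = 8.39e-04, edgeR). Cldn4 and St14, a membrane protease of epithelia, were higher in BURP-16SR than in BURP-19NE as well, by 9.40 and 5.57.

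Of 10 transcription factors of epithelial identity, 9 were lower in BURP-19NE and 10 in BURP-16SR, and none was higher. Among all genes tested, 15% were called lower in BURP-19NE and 8.62% in BURP-16SR. Grhl3, a grainyhead factor of barrier epithelia, had 0 counts in both lines, at least 426-fold lower in BURP-19NE and 265-fold lower in BURP-16SR. Trp63, the master factor of basal cells, fell by 9.98 in BURP-19NE (standard error 0.62, adjusted p = 9.12e-11, edgeR). In BURP-16SR it fell by 11.42 (standard error 0.71, adjusted p = 1.12e-10, edgeR). By staining for the protein, however, the study reports high TP63 in BURP-19NE and TP63 in some cells of BURP-16SR. The source of this difference between RNA and protein was not tested. Elf3, an epithelial ETS factor, had 1 count in BURP-19NE, and its relative Ehf fell by 11.32 in BURP-16SR. Klf5, a factor of epithelial proliferation, and Ehf were lower in BURP-16SR than in BURP-19NE, by log2 fold changes of -1.26 and -3.21, and each of these calls was lost with single tumors left out.

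Mesenchymal effectors differed between the lines. In BURP-16SR 12 of 19 genes tested were higher and 0 lower, where 10.5% of all genes were called higher. Their median log2 fold change in BURP-16SR was 2.33. Beside them, 5 of 10 fibroblast markers (median 2.25), 7 of 10 endothelial and 4 of 8 smooth muscle and pericyte markers were called higher there. The effectors summed to between 10102 and 17100 CPM in BURP-16SR, with the peak in C74-MNT, the tumor with the highest fibroblast sum. Every BURP-16SR tumor, also P5 with a fibroblast sum of 603 CPM, was above the Ba/Sq tumors, whose effector sums ran from 1022 to 9456 CPM. The part of host cells was not tested. In BURP-19NE 5 effectors were higher and 2 lower, with a median of -1.03, where 9.33% of all genes were called higher and 15% lower. Cdh2, which encodes N-cadherin, averaged 44.3 ± 10.3 CPM (SD, 3 tumors) in BURP-16SR, 0.289 ± 0.3 CPM over the 3 tumors of BURP-19NE and 2.61 ± 4.38 CPM over the 18 of Ba/Sq, and BURP-16SR exceeded BURP-19NE by 7.30 (standard error 0.63, adjusted p = 9.53e-04, edgeR). The collagenase gene Mmp2 was higher in BURP-16SR by 2.84 (standard error 0.90, adjusted p = 0.0248, edgeR), which was 1.32 without C74-MNT (adjusted p = 0.463). Thbs1, which encodes thrombospondin 1, and the receptor kinase gene Axl were among the 5 higher in BURP-19NE, by 3.45 (standard error 0.60, adjusted p = 1.51e-04, edgeR) and 2.54 (standard error 0.67, adjusted p = 0.00616, edgeR). Tnc, which encodes tenascin C, was lower in BURP-19NE (log2 fold change -3.26, standard error 0.92, adjusted p = 0.00944, edgeR, and 0.0513 without C80-M3) and 4.76 higher in BURP-16SR than in BURP-19NE. Spock1 was not tested.

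Among 20 inducers and cofactors of EMT, 7 were higher and 4 lower in BURP-19NE, 11 of 20 against the 24.3% of all genes. In BURP-16SR 3 were higher and 2 lower, 5 of 20 against the 19.2% of all genes. Foxc2, a forkhead factor of mesoderm, averaged 22.5 ± 3.27 CPM (SD, 3 tumors) in BURP-19NE, 0.921 ± 0.211 CPM over the 3 tumors of BURP-16SR and 1.32 ± 1.18 CPM over the 18 of Ba/Sq (higher in BURP-19NE by 4.15 on the log2 scale, standard error 0.52, adjusted p = 3.50e-06, edgeR). Foxq1, another forkhead factor, was lower in both lines, by log2 fold changes of -3.55 (adjusted p = 4.04e-04, edgeR) and -5.04 (adjusted p = 1.15e-04, edgeR). Id2, an inhibitor of basic helix-loop-helix factors, was lower in BURP-19NE (-2.86, adjusted p = 5.36e-04, edgeR), and BURP-16SR was above BURP-19NE for Id2 by 2.54 (a call lost without C80-M1, adjusted p = 0.0509) and for Tgfb2 by 2.40. Tgfb3 was higher in BURP-16SR by 1.44 (adjusted p = 0.0246, edgeR) and Foxc1 lower (-2.27, adjusted p = 0.0147, edgeR), and both calls were lost with single BURP-16SR tumors left out. Of 8 other splicing regulators 1 was called in each line, where 24.3% of all genes were in BURP-19NE and 19.2% in BURP-16SR. It was Rbm47, an RNA-binding protein of epithelia, which was lower in BURP-19NE (-4.75, standard error 0.53, adjusted p = 6.09e-07, edgeR) and in BURP-16SR (-2.66, standard error 0.53, adjusted p = 7.73e-04, edgeR).

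Within the Ba/Sq class, each line was compared with the 15 tumors of the other 5, and these comparisons share their tumors. BURP-18BaSq alone had calls, with 3 of the 10 genes where 10.1% of 20523 genes were called. Its tumors C148-M3, C149-M3 and P4 held 32.7, 17.2 and 44.6 CPM of Zeb1, 40.8, 29.2 and 16.4 CPM of Twist1 and 10.6, 25.2 and 27.1 CPM of Snai2. Zeb1 was higher by 1.58 on the log2 scale (standard error 0.50, adjusted p = 0.0383, edgeR), Twist1 higher by 1.48 (standard error 0.40, adjusted p = 0.0182, edgeR) and Snai2 lower (-1.33, standard error 0.31, adjusted p = 0.00735, edgeR). For Snai2 every BURP-18BaSq tumor was below all other Ba/Sq tumors, and for Zeb1 and Twist1 the ranges overlapped. The signs of these 3 are those of BURP-16SR and BURP-19NE against the Ba/Sq lines, which include BURP-18BaSq. Esrp1 had its lowest Ba/Sq mean in BURP-18BaSq, at -0.87 on the log2 scale (standard error 0.31, adjusted p = 0.06, edgeR), while Esrp2 was highest there with a mean of 138 ± 68.3 CPM (SD, 3 tumors). No gene of the 10 was called without C148-M3, where Zeb1 was at 1.55 (adjusted p = 0.157), Twist1 at 1.13 (adjusted p = 0.206) and Snai2 at -1.02 (adjusted p = 0.081). The call of Zeb1 was also lost without P4 (1.24, adjusted p = 0.176) and with no filter (adjusted p = 0.0584), and that of Twist1 without C149-M3 (adjusted p = 0.0717), where Esrp1 was called lower (-1.34, adjusted p = 0.0273, edgeR). C148-M3 had 10.6 CPM of Snai2, the lowest Esrp1 of the Ba/Sq tumors at 60.6 CPM and the lowest Prrx1 at 1.51 CPM.

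In the other 5 Ba/Sq lines edgeR called 0 of the 10 genes, where the share of all genes called was 4.59% for BURP-12BaSq, 1.07% for BURP-17BaSq, 0.0195% for BURP-21BaSq, 1.65% for BURP-24BaSq and 0.273% for BURP-25BaSq. Without C102-M1, the tumor of BURP-25BaSq near BURP-21BaSq, the genes called in all went from 4 to 123 in BURP-21BaSq and from 56 to 320 in BURP-25BaSq, and 0 of the 10 genes were called in either. At an unadjusted p under 0.05 there were 3 genes in BURP-17BaSq, 2 in BURP-21BaSq, 1 in BURP-24BaSq and 0 in the other 2 lines. DESeq2 called 1, Twist2 in BURP-21BaSq (log2 fold change -2.02, adjusted p = 0.0183, against 0.246 in edgeR). In BURP-17BaSq the 3 genes were Vim (1.74, standard error 0.57, adjusted p = 0.141), Prrx1 (1.75, standard error 0.71, adjusted p = 0.244) and Twist2 (1.37, standard error 0.50, adjusted p = 0.196). Vim was at 532, 26.6 and 298 CPM in its tumors and Prrx1 at 92.5, 2.69 and 20.1 CPM, both in the order of the fibroblast sums of 9950.4, 331 and 3053 CPM. The macrophage sums (824, 66.6 and 262 CPM) and the endothelial sums (505, 48.0 and 194 CPM) ran in the same order. Without C152-M1 the log2 fold change of Prrx1 there was -0.00448. In BURP-24BaSq Esrp1 averaged 259 ± 46.0 CPM (SD, 3 tumors), the highest of the 8 lines, at 0.72 on the log2 scale (standard error 0.28, adjusted p = 0.181).

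The study compared male with female Ba/Sq lines. Of the 10 genes 0 were called by edgeR over 9 tumors of each sex, where 2.31% of 17922 genes were called, and 3 had an unadjusted p under 0.05. Twist1 ran from 3.59 to 40.8 CPM in male tumors (median 15.96 CPM) and from 2.24 to 18.6 CPM in female tumors (median 8.32 CPM), with a log2 fold change of male over female of 1.05 (standard error 0.37, adjusted p = 0.0983, edgeR). For Zeb1 it was 1.09 (standard error 0.46, adjusted p = 0.16, edgeR), with medians of 13.04 and 8.93 CPM. For Esrp1 it was -0.66 (standard error 0.21, adjusted p = 0.0648, edgeR), with medians of 128 and 212 CPM. The ranges overlapped for all 3. DESeq2 called Twist1 (adjusted p = 0.0416), and edgeR called it without BURP-12BaSq (log2 fold change 1.37, adjusted p = 0.0211). The 9 tumors of a sex come from 3 mice, so that line and sex are in part the same, and with counts summed per line no gene of the whole table was called.

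The order of the 8 line means differed between the genes. For Zeb1 and Twist1 it was the same, from BURP-19NE over BURP-16SR, BURP-18BaSq, BURP-17BaSq, BURP-21BaSq, BURP-12BaSq and BURP-25BaSq to BURP-24BaSq, and Zeb2 differed from it only in the last 2 places. Of the 7 steps between neighbors in these orders, the tumors did not overlap in 2 for Zeb1, 1 for Zeb2 and 1 for Twist1. For Snai2 the order ran from BURP-21BaSq down to BURP-18BaSq, BURP-16SR and BURP-19NE, with no overlap in the last 3 steps, from BURP-24BaSq on. For Snai1, Twist2 and Prrx1 all neighbors overlapped. Vim had 2 steps without overlap, from BURP-16SR to BURP-19NE and from BURP-19NE to BURP-17BaSq. Esrp1 had 1 and Esrp2 had 2, the step from the lowest Ba/Sq line to BURP-16SR in both and that from BURP-16SR to BURP-19NE in Esrp2.

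Genes with the most similar pattern were found by Pearson's r of log2 CPM over the 24 tumors among 21383 genes. The points share libraries, depth and 8 donors, and the values are a description. For Zeb1 these were Arhgef6 (r = 0.959), Cep170 (0.950) and Lix1l (0.948), and for Zeb2 Syde1 (0.941), Sec24d (0.930) and Psen2 (0.928). For Snai1 they were Ptgir (0.944), Clmp (0.938) and Col15a1 (0.924), and for Snai2 Fat2 (0.965), Gm16045 (0.956) and Gramd2 (0.956). Twist1 had the lowest leading value of the 10 genes, with Dmwd (0.900), 2700081O15Rik (0.895) and Ica1 (0.894). Twist2 was nearest to Gm29101 (0.908), Arntl (0.871) and Gdpd2 (0.855), and Prrx1 to Bicc1 (0.966), Gm37644 (0.959) and Pla1a (0.946). Gm29101 and Gm37644 lie within Twist2 and Prrx1. Vim was nearest to Wipf1 (0.965), Plxnd1 (0.959) and Parvb (0.946). Esrp1 was nearest to the keratin genes Krt6a (0.996) and Krt5 (0.995), and Esrp2 to Cdh1 (0.991) and Urah (0.983).

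Over the 18 Ba/Sq tumors alone, without the 6 tumors in which Esrp1 and Esrp2 were near 0, the nearest gene was another for 8 of the 10. It was Plcd1 for Esrp1 (r = 0.951), 1810019D21Rik, which overlaps Esrp2, for Esrp2 (0.921), Dkk2 for Zeb1 (0.906), Plekho2 for Zeb2 (0.935), Tmem218 for Snai2 (0.929), Jag2 for Twist1 (0.925), 1700001O22Rik for Twist2 (0.881) and C1qtnf5 for Vim (0.938). Ptgir for Snai1 (0.917) and Bicc1 for Prrx1 (0.968) led in both. Antisense genes overlap Zeb1 (Gm10125), Zeb2 (Zeb2os), Twist2 (Gm29100), Prrx1 (Gm20471) and Esrp1 (Gm26663), and the strand setting of the counting is not given in the sources used here, so reads of these pairs may not be told apart. Zeb2os was called higher in BURP-19NE with its partner Zeb2 (log2 fold change 1.41, standard error 0.53, adjusted p = 0.0449, edgeR), a call kept in 5 of 21 fits that each left out 1 tumor, and was at 0.19 in BURP-16SR (standard error 0.62, adjusted p = 0.854, edgeR).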

How the data were processed

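The data are bulk RNA-seq of 24 BURP tumors. Per the submitters' processing notes, reads were handled with CASAVA 1.8.2, aligned to GRCm38 with STAR 2.6.0a and counted per gene with RSEM 1.3.1. The deposited values are RSEM expected counts, of which 12.4% were not whole, and they were rounded here. The authors' strand setting and trimming are not given in the sources used here. Ensembl identifiers were matched to symbols of GENCODE M21 (99.6% matched). Genes were filtered with filterByExpr, normalized with TMM and tested with edgeR 4.0.16 (glmQLFit, glmQLFTest) in R 4.3.3, with limma 3.58.1 installed and DESeq2 1.42.0 as an alternative, and p-values were adjusted over all genes tested. The standard error is the absolute log2 fold change divided by the square root of F. RPKM used merged exon length. Intervals and floors (3 counts) cover counting error only. The scripts were tested on simulated counts of independent tumors with the same dispersion for all genes. That simulation holds no spread between lines or donors, so it cannot show error rates for allografts that share a donor.

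The 2 lines outside the Ba/Sq class were each compared with its 18 tumors and with each other, single Ba/Sq lines with the remaining 5, and males with females among the Ba/Sq lines. Labels give each tumor's line by number, and the study gives the subtype and sex of the lines. The study writes a passage as P with a number, so labels such as P4 and P5 may give a passage. The other labels give none, and no comparison took account of passage. The 10 genes and the gene lists were chosen with earlier results of these data known, and the lists of microRNA host transcripts and of overlapping genes, and the likeness over 18 Ba/Sq tumors, were added after the data were seen. Genes of the related lists were named if called and largest in absolute log2 fold change, up to 3 per list, with every tested gene of lists of 5 or fewer. The 3 genes of highest Pearson's r of log2 CPM (prior count 2) were named for likeness. Some genes that these rules select are not reported here. Fold changes in single Ba/Sq lines and between sexes are given for those of the 10 genes with an unadjusted p under 0.05. The list of family relatives also holds the antisense gene Zeb2os. It gave 2 higher and 1 lower of 3 tested in BURP-19NE and none in BURP-16SR. The list of overlapping or antisense genes gave 2 higher and 2 lower of 5 tested in BURP-19NE and 1 and 2 in BURP-16SR. As alternatives the low-count filter was dropped or raised to a minimum of 10 counts per tumor, DESeq2 or its size factors were used, a joint fit took in the 24 tumors, and each tumor or line was left out.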

Additional observations from a re-analysis of the deposited data

Results flagged for a closer look

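In groups of 9 male or 9 female Ba/Sq tumors, 3 single tumors stood apart from the rest, among 20 groups tested. Chance gives about 1 in 20 for independent tumors with normally distributed levels. The 9 tumors of a sex come from 3 donor mice and are not independent. CPM were used without a log scale and were skewed, as for Prrx1 in male tumors (mean 18.7 CPM, median 4.33 CPM). That rate therefore cannot be taken as the rate for these data. Snai2 was at 99.6 CPM in P5 of BURP-21BaSq, with the next female tumor at 52.0 CPM. Twist2 was at 15.2 CPM in C102-M30 of BURP-25BaSq, the library with 62.8% of counts in ribosomal RNA genes and Gm26917, where this level rests on 34 counts, and the next female tumor was at 6.32 CPM. Prrx1 was at 92.5 CPM in C152-M1 of BURP-17BaSq, with the next male tumor at 27.3 CPM, and this tumor had the highest fibroblast sum of the Ba/Sq class. The part of the fibroblasts in it was not tested.

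The difference from the Ba/Sq lines had opposite signs in BURP-16SR and BURP-19NE for Snai1, Prrx1 and Twist2. Tested directly between those lines, Snai1 differed by 4.38 and Prrx1 by 3.805 on the log2 scale (adjusted p = 0.00913 and 0.018, edgeR). Twist2 differed by 3.66, which was not called (adjusted p = 0.0715, edgeR).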

How the results depend on the processing

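Most log2 fold changes of the 10 genes kept their sign and their side of the threshold, in 694 repeats, with 25 below the threshold, 15 newly past it and 1 of the other sign. Of the repeats for other named genes 1063 did so, 49 fell below, 5 came past and 1 changed sign. With at least 10 counts in every tumor, a filter that removes genes low in 1 class, 4 of the 10 genes were called in BURP-19NE instead of 7, and 24 and 26 genes of the related lists in BURP-19NE and BURP-16SR. With all 24 tumors in 1 fit 1 gene was called in BURP-17BaSq (Vim, 1.83, adjusted p = 0.0205, edgeR), and DESeq2 called 1 in BURP-21BaSq (Twist2) and 1 between the sexes (Twist1). Leaving out single tumors gave 0 to 1 calls in BURP-17BaSq (Vim without C165-M30) and 0 to 3 in BURP-18BaSq (0 without C148-M3), and leaving out single lines gave 0 to 1 between the sexes (1 without BURP-12BaSq). The log2 fold change of Prrx1 in BURP-17BaSq ran from -0.00448 (without C152-M1) to 2.30, and that of Zeb2os in BURP-16SR from -0.12 (without C74-MNT) to 0.48. No paired analysis was possible because BURP-16SR shares no code with BURP-19NE, and the codes that recur between other lines (M1, M3, M30 and P4) are missing from part of the tumors compared and are not said by any label to mark a shared animal, batch or day. Depth limits the genes at or near 0, above all in C102-M30.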
